A study of Mus musculus with 8 samples.

Results

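The proteasome subunit genes are the 33 protein-coding genes that encode the constitutive proteasome of the mouse, chosen by symbol as Psma1 to Psma7, Psmb1 to Psmb7, Psmc1 to Psmc6, Psmd1 to Psmd9 and Psmd11 to Psmd14, out of 56953 gene identifiers in the count table. No expression value entered this choice. The interferon-inducible subunits of the immunoproteasome are not among them and are given further on as related genes. The proteasome degrades proteins that carry ubiquitin chains, and dividing tumour cells depend on it to clear cyclins, misfolded proteins and signalling inhibitors. It is built from a barrel, the core particle, whose outer rings are formed by the alpha subunits and whose inner rings by the beta subunits, with the cutting sites inside. A cap, the regulatory particle, recognises ubiquitin, unfolds the substrate with a ring of ATPases and feeds it into the barrel. By these roles the members fall into 14 genes of the core particle, with 7 alpha and 7 beta genes, and 19 genes of the regulatory particle, with 6 ATPases and 13 other genes.

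Gene-level RNA counts came from CT26, a mouse colorectal carcinoma line, as transplanted tumours or as cell cultures. Of the tumours, 2 libraries came from tumours treated with mLJZD, a drug whose abbreviation the labels do not expand, and 2 from tumours given normal saline. Of the cultures, 2 libraries came from cells kept for 48 h with 10% serum containing mLJZD, and 2 from cells kept as long with 10% control serum. The sources used here give neither dose nor duration of the tumour treatment, nor strain and age of the host mice. Whether the paired libraries of a group stem from different animals or dishes is not labelled, and the p-values therefore reflect the scatter between libraries, which may be technical.

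Library totals ran from 16594912 to 29363861 counts, and all 33 members passed the filter on low counts in every fit. Of the 8 epithelial markers checked, Epcam had no count in any culture library and at most 0.873 CPM in a tumour library, where CPM are counts scaled to the library total, and Krt8 reached 0.489 CPM in the cultures and 3.28 CPM in the tumours. Krt18 stood at 1.86 and 2.23 CPM in mLJZD tumours, 16.6 and 15.8 CPM in saline tumours, 29.2 to 32.0 CPM in mLJZD cultures and 30.9 to 39.0 CPM in control cultures. Krt20 held most of the counts of this list, with 175 and 176 CPM in mLJZD tumours, 276 and 271 CPM in saline tumours, 207 and 208 CPM in mLJZD cultures and 146 and 141 CPM in control cultures. The 8 epithelial markers summed to 183 CPM in each library of mLJZD tumours and 294 to 299 CPM in saline tumours, and to 238 to 239.6 CPM in mLJZD cultures and 174 to 187 CPM in control cultures. The tumours held RNA of other cells: Ptprc, which marks leukocytes, stood at 114 to 122 CPM in mLJZD tumours and 107 to 110.4 CPM in saline tumours, against 0 to 0.0681 CPM in mLJZD cultures and 0 CPM in control cultures. The sum of 4 skeletal muscle markers was 298 to 308 CPM in mLJZD tumours and 1909 to 1931 CPM in saline tumours, that of 4 B and plasma cell markers 321 to 356 CPM in mLJZD tumours and 25.8 to 26.9 CPM in saline tumours, and that of 4 macrophage markers 520 to 536 CPM in mLJZD tumours and 668 to 671 CPM in saline tumours. Of the macrophage markers, Mrc1 had 186 and 183 CPM in mLJZD tumours and 296 and 300 CPM in saline tumours. Csf1r and Adgre1 were also lower in mLJZD tumours, and Cd68 was higher, with 95.4 and 87.5 against 79.4 and 79.9 CPM. Of the epithelial markers, Cdh1 went against the sum, with 4.75 and 3.98 CPM in mLJZD tumours and 2.95 and 3.28 CPM in saline tumours. In such bulk samples fewer cells of a type and less RNA per cell cannot be told apart.

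The promoters of members that the results turn on are shown here, as the 250 bases before the start site. Proteasome genes are known to be raised together by the transcription factor Nfe2l1, which binds antioxidant response elements, and NF-Y, which binds the CCAAT box, is a further activator of several of them. Sequences for 27 of the 33 members, in 29 entries, were found among the RefSeq promoters of the build GRCm38.p6. Psmb5 (chr14:54617996-54618245, minus strand) and Psmb6 (chr11:70525107-70525356, plus strand) encode catalytic subunits, Psmb3 (chr11:97703184-97703433, plus strand) had one of the largest falls in cultures, and Psmd1 (chr1:86064369-86064618, plus strand) and Psmd2 (chr16:20651402-20651651, plus strand) were the members that rose there. Capitals mark the core of the antioxidant response element, TGACNNNGC, in Psmb5 and Psmb6, and the CCAAT box in Psmb3.
Psmb5: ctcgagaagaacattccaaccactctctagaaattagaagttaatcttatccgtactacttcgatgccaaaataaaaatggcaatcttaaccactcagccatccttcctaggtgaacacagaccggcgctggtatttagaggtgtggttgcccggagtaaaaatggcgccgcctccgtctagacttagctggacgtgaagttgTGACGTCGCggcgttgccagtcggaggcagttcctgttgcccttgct
Psmb6: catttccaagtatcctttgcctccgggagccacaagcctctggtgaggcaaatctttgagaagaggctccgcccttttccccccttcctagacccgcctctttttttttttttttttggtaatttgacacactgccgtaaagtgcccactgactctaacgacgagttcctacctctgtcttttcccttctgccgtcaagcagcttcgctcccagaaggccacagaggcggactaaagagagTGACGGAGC
Psmb3: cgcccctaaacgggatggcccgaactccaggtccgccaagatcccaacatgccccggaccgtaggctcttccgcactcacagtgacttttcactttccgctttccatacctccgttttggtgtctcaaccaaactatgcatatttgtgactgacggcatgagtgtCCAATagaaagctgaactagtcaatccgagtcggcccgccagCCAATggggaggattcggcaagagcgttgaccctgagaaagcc
Psmd1: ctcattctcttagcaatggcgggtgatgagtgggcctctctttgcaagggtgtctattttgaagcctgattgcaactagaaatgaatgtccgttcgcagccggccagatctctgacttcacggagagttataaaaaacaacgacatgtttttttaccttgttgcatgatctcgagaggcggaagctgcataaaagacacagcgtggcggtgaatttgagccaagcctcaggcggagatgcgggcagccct
Psmd2: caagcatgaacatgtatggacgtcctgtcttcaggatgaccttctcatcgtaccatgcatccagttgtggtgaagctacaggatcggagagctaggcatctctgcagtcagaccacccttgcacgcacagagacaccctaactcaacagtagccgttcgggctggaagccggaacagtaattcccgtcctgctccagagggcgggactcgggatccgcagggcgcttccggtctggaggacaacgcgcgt
The response element core began 47 bases before the start site in Psmb5 and 9 bases before it in Psmb6, and the CCAAT boxes of Psmb3 began 85 and 43 bases before it. Neither pattern occurred in the windows of Psmd1 and Psmd2. The same held for Psma4, Psma5, Psmb4, Psmc4, Psmc5, Psmd5, Psmd8 and Psmd13, which were all lower in mLJZD cultures before trend removal. It also held for Psmd6 and Psmd11, which were not called there. After removal of the length and GC trend described below, Psmb4 and Psmd5 of these stayed lower with either transcript length. Searched on both strands, TGACNNNGC was found in 5 of the 29 member promoters (17.2%) and in 10.2% of all 32851 RefSeq promoters of the same length. CCAAT was found in 34.5% of the member promoters and 33.9% of all, the GC box GGGCGG in 55.2% and 32.7%, and the TATA box TATAAA in 10.3% and 12.4%. Matches of different motifs overlapped in 1 place in the member promoters. A match is a description of letters and was not tested as a binding site.

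Levels per length were compared first. In TPM, where counts are divided by the length of the longest transcript, Psmb4, a structural beta subunit, was the highest member in mLJZD tumours (449.8 ± 8.94 TPM, SD, n = 2), in saline tumours (446.9 ± 0.782) and in control cultures (699 ± 8.42). Psmd2, the scaffold of the base that also holds shuttle proteins, led in mLJZD cultures with 574 ± 29.7 TPM, followed by Psmb4 with 473 ± 43.3 TPM. Psmd9, a chaperone for assembly of the base, was the lowest in all 4 groups, with 34.7 ± 2.31 TPM in mLJZD tumours, 36.2 ± 2.10 TPM in saline tumours, 47.5 ± 3.45 TPM in mLJZD cultures and 50.4 ± 2.23 TPM in control cultures. The highest member stood 12.1 to 13.9 times above the lowest. With the annotated principal transcript as the length, Psma7, an alpha subunit, came above Psmb4 in 3 groups, with 478 against 399 TPM in mLJZD tumours, 507 against 397 TPM in saline tumours and 478 against 419.7 TPM in mLJZD cultures.

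The summed level of the members differed mainly between tumours and cultures. The 33 genes together took 0.427% ± 0.00413 of the counts in mLJZD tumours and 0.4298% ± 0.000261 in saline tumours (SD, n = 2). They took 0.585% ± 0.0142 in mLJZD cultures and 0.702% ± 0.0124 in control cultures. The core particle summed to 1796 and 1777 CPM in mLJZD tumours, 1768 and 1785 CPM in saline tumours, 1970 and 1949 CPM in mLJZD cultures and 2907 and 2742 CPM in control cultures. The mLJZD cultures thus stood below the control cultures in the core particle, and the libraries of the tumour groups overlapped. For the regulatory particle the sums were 2499 and 2460 CPM in mLJZD tumours, 2528 and 2515 CPM in saline tumours, 3978 and 3798 CPM in mLJZD cultures and 4202 and 4192 CPM in control cultures. The ratio of core to regulatory particle was 0.719 and 0.722 in mLJZD tumours and 0.6996 and 0.7097 in saline tumours. In cultures it was 0.495 and 0.513 with mLJZD serum and 0.692 and 0.654 with control serum. The ratios of the mLJZD libraries and of their comparison libraries did not overlap in either material. After removal of the trend in transcript length and GC content, described below, the order of the cultures reversed for the regulatory particle. It summed to 4104 and 3901 CPM with mLJZD serum and 3651 and 3713 CPM with control serum. The core particle then summed to 2191 and 2113 CPM with mLJZD serum and 2254 and 2241 CPM with control serum. All 33 members gave 6296 and 6014 CPM with mLJZD serum, against 5905 and 5954 CPM with control serum. These sums are a description without a test.

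**Figure D1:**
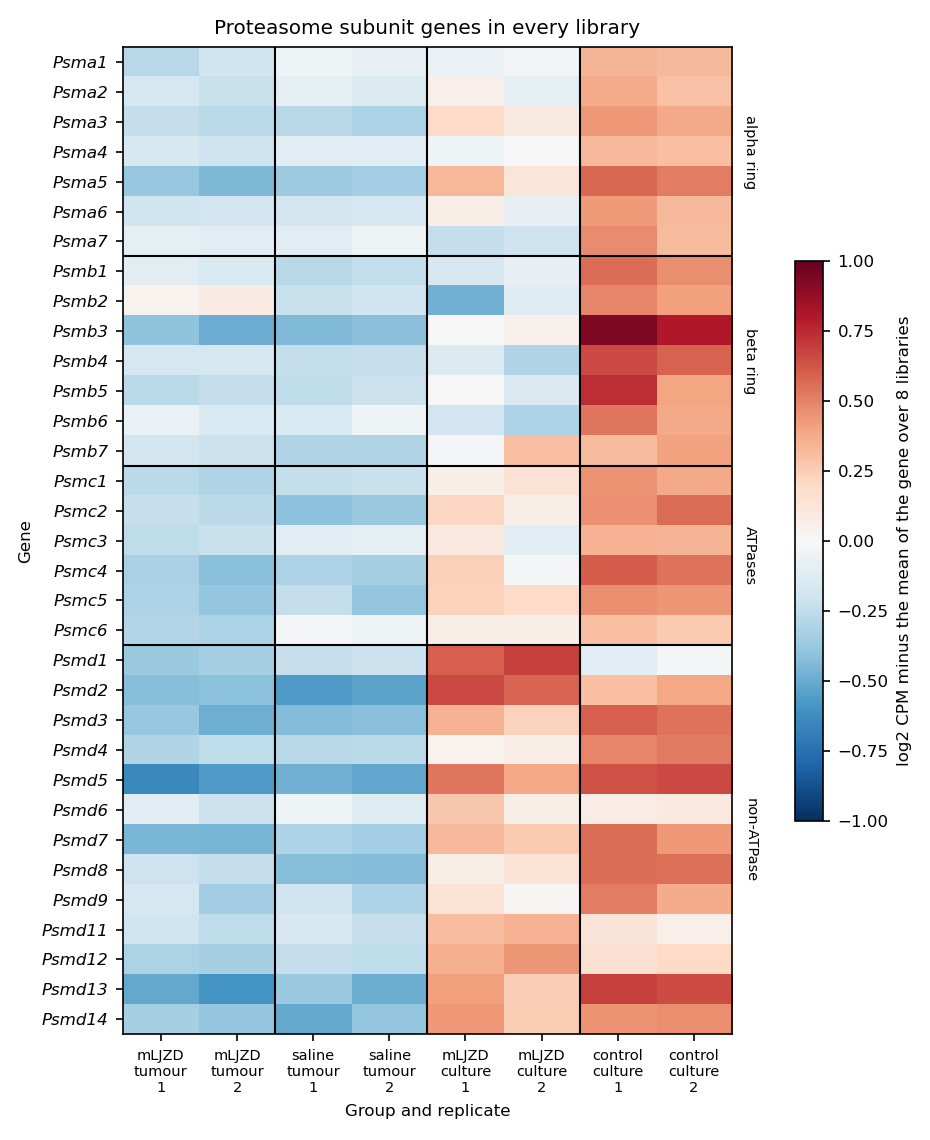
Each row is a member and each column a library; colour gives log2 CPM minus the mean of that gene over the 8 libraries. The control culture columns are the reddest for most genes, the tumour columns are blue for most, and Psmd1 and Psmd2 are reddest in the mLJZD culture columns.

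**Figure D2:**
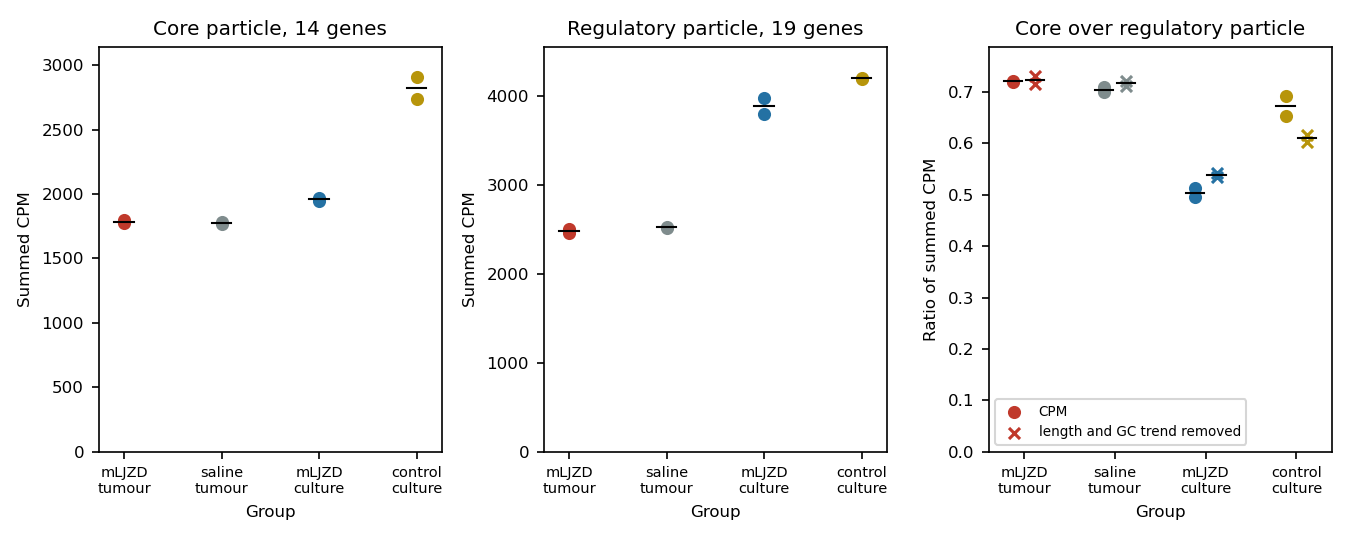
Points are libraries and short lines are group means of the summed CPM of the 14 core genes, the summed CPM of the 19 regulatory genes, and their ratio, with crosses after removal of the length and GC trend. The ratio in mLJZD cultures, 0.495 and 0.513, lies below that of every other group, and after trend removal it averages 0.538 in mLJZD cultures and 0.610 in control cultures.

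Between mLJZD and saline tumours most members did not pass the test. Of the 33 members, 6 were higher and 1 was lower in mLJZD tumours by edgeR's quasi-likelihood test at an adjusted p under 0.05. Among all 15417 genes tested, 15.4% were called higher and 16.0% lower. The members had a median log2 fold change of 0.0049, beside 0.00092 for all genes, and ran from -0.23 to 0.30.

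The higher members belonged to the beta ring and to different parts of the cap. Psmb2, a structural beta subunit, had 110.2 and 114 CPM in mLJZD tumours, against 92.1 and 93.9 CPM in saline tumours. The groups did not overlap, and the log2 fold change was 0.30 (SE 0.05, edgeR adjusted p = 9.58e-05). Psmd8, a lid subunit, had 158 and 155 CPM in mLJZD tumours and 136 and 135 CPM in saline tumours, again with no overlap (log2 fold change 0.24, SE 0.05, edgeR adjusted p = 0.00307). Psmc2, an ATPase, had 124 and 121 CPM in mLJZD tumours and 109.6 and 113 CPM in saline tumours, and its log2 fold change was 0.17 (SE 0.05, edgeR adjusted p = 0.0166). Psmd2 had 326 and 329 CPM in mLJZD tumours, against 295 and 301 CPM in saline tumours (log2 fold change 0.17, SE 0.05, edgeR adjusted p = 0.0108). Both genes kept the groups apart. Psmb1, a structural beta subunit, was higher, at 0.16 on the log2 scale (SE 0.05, edgeR adjusted p = 0.0291).

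The lower member was Psmc6, an ATPase, with 144 and 142 CPM in mLJZD tumours and 174 and 170.3 CPM in saline tumours. Its groups did not overlap, and the log2 fold change was -0.23 (SE 0.05, edgeR adjusted p = 0.00293).

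Of the 3 catalytic genes, 1 passed the test in tumours. Psmb7, the trypsin-like subunit, had 111 and 109 CPM in mLJZD tumours and 102 and 102 CPM in saline tumours (log2 fold change 0.13, SE 0.05, edgeR adjusted p = 0.0424). Psmb5, the chymotrypsin-like subunit that proteasome inhibitor drugs bind, had 49.6 and 50.9 CPM in mLJZD tumours, against 50.2 and 51.5 CPM in saline tumours. Psmb6, the caspase-like subunit, had 90.5 and 85.1 CPM in mLJZD tumours, against 85.1 and 92.1 CPM in saline tumours. The groups overlapped for both, with log2 fold changes of 0.01 (SE 0.06, edgeR adjusted p = 0.896) and 0.02 (SE 0.05, edgeR adjusted p = 0.818). No alpha gene was called, and the 7 of them ran from -0.14 to 0.08.

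These tumour calls rested on small differences, and leaving out mLJZD replicate 1 left 0 of the 33 members called by edgeR, with 5 at an unadjusted p under 0.05; DESeq2 on all 4 libraries called 5 higher and 1 lower. Without any other library 2 were called higher, Psmb2 and Psmd8, and 0 or 1 lower. The call of Psmb7 ended under each library left out (edgeR adjusted p = 0.0675 to 0.298) and with upper-quartile scaling, library totals, DESeq2, no filter, a replicate block (edgeR adjusted p = 0.0657), the trend removed or all 8 libraries in one fit. That of Psmc2 ended under each library left out (edgeR adjusted p = 0.0607 to 0.171), with no filter and with all 8 libraries in one fit. That of Psmd2 ended under each library left out (edgeR adjusted p = 0.0522 to 0.197). With the length and GC trend removed 5 members were higher and 3 lower, where 15.8% of all genes were higher and 16.2% lower, and with the principal transcript 4 were higher and 2 lower (15.9% and 16.2% of all genes). Psmb2, Psmc2, Psmd2 and Psmd8 were higher and Psmc6 lower in both of these fits. The sums of epithelial, muscle, B and plasma cell and macrophage markers given above differed between the same groups, and their part in these differences was not tested.

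In cultures, mLJZD serum went with lower RNA of most members. Of the 33 members, 27 were lower and 2 higher in mLJZD cultures by edgeR, and 4 were not called. Among all 13299 genes tested 26.6% were called lower and 28.8% higher, and the median log2 fold change was -0.40 over the members and -0.013 over all genes. All 14 genes of the core particle were lower, with a median of -0.56, and of the 19 genes of the regulatory particle 13 were lower and 2 higher, with a median of -0.30.

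The 7 beta genes had a median log2 fold change of -0.77 and ran from -0.91 to -0.26. Psmb3, a structural subunit, had 107 and 111 CPM in mLJZD cultures and 205 and 187 CPM in control cultures. Psmb4 had 230.4 and 206 CPM in mLJZD cultures and 402 and 383 CPM in control cultures. In both genes each mLJZD library lay far below each control library, with log2 fold changes of -0.91 (SE 0.08, edgeR adjusted p = 3.35e-07) and -0.91 (SE 0.08, edgeR adjusted p = 3.97e-07). Psmb2 had 77.2 and 98.7 CPM in mLJZD cultures and 151 and 143 CPM in control cultures, with no overlap (log2 fold change -0.79, SE 0.10, edgeR adjusted p = 1.18e-05). Psmb1 fell by 0.69 on the log2 scale (SE 0.07, edgeR adjusted p = 2.35e-06).

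The catalytic genes fell as well. Psmb5 had 59.8 and 54.1 CPM in mLJZD cultures and 100.1 and 78.7 CPM in control cultures. Psmb6 had 83.1 and 76.6 CPM in mLJZD cultures and 137 and 123 CPM in control cultures. Neither gene overlapped between the groups, and the log2 fold changes were -0.71 for Psmb5 (SE 0.11, edgeR adjusted p = 6.93e-05) and -0.77 for Psmb6 (SE 0.08, edgeR adjusted p = 3.54e-06). Psmb7 had 124 and 155 CPM in mLJZD cultures and 157 and 166 CPM in control cultures, where the second mLJZD library came close to the controls. It came to -0.26 on the log2 scale (SE 0.09, edgeR adjusted p = 0.0272), and the call ended without mLJZD replicate 1 (-0.11, edgeR adjusted p = 0.321), without control replicate 2 (edgeR adjusted p = 0.0759) and with library totals in place of TMM (edgeR adjusted p = 0.0737).

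The alpha ring forms the gate of the barrel. Its 7 genes, Psma1, Psma2, Psma3, Psma4, Psma5, Psma6 and Psma7, were all lower, with log2 fold changes from -0.33 for Psma3 to -0.68 for Psma7 and a median of -0.41. All 6 ATPase genes of the cap, Psmc1, Psmc2, Psmc3, Psmc4, Psmc5 and Psmc6, were lower too, from -0.28 for Psmc6 to -0.51 for Psmc4, with a median of -0.39.

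The remaining genes of the cap were mixed. Psmd1, the largest scaffold subunit of the base, had 307 and 325 CPM in mLJZD cultures and 188 and 199.8 CPM in control cultures. Every mLJZD library lay above every control library, and the log2 fold change was 0.65 (SE 0.07, edgeR adjusted p = 3.65e-06). Psmd2 had 691 and 653 CPM in mLJZD cultures and 539 and 571 CPM in control cultures, and the log2 fold change came to 0.22 (SE 0.07, edgeR adjusted p = 0.0212). That call ended with upper-quartile scaling (0.11, edgeR adjusted p = 0.249), without control replicate 1 (edgeR adjusted p = 0.125) and without mLJZD replicate 1 (edgeR adjusted p = 0.0695). Psmd4, a ubiquitin receptor of the base, was lower, at -0.51 (SE 0.07, edgeR adjusted p = 2.17e-05).

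Of the 8 lid genes 4 were lower: Psmd8 (log2 fold change -0.51), Psmd13 (-0.40), Psmd3 (-0.34) and Psmd7 (-0.26), the partner of the deubiquitinase. The deubiquitinase of the lid, Psmd14, had a log2 fold change of -0.17 (edgeR adjusted p = 0.0786), and Psmd6 (0.02), Psmd11 (0.18) and Psmd12 (0.16) were not called either. The assembly chaperones Psmd5 (-0.25) and Psmd9 (-0.43), which leave the finished particle, were both lower.

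**Figure D3:**
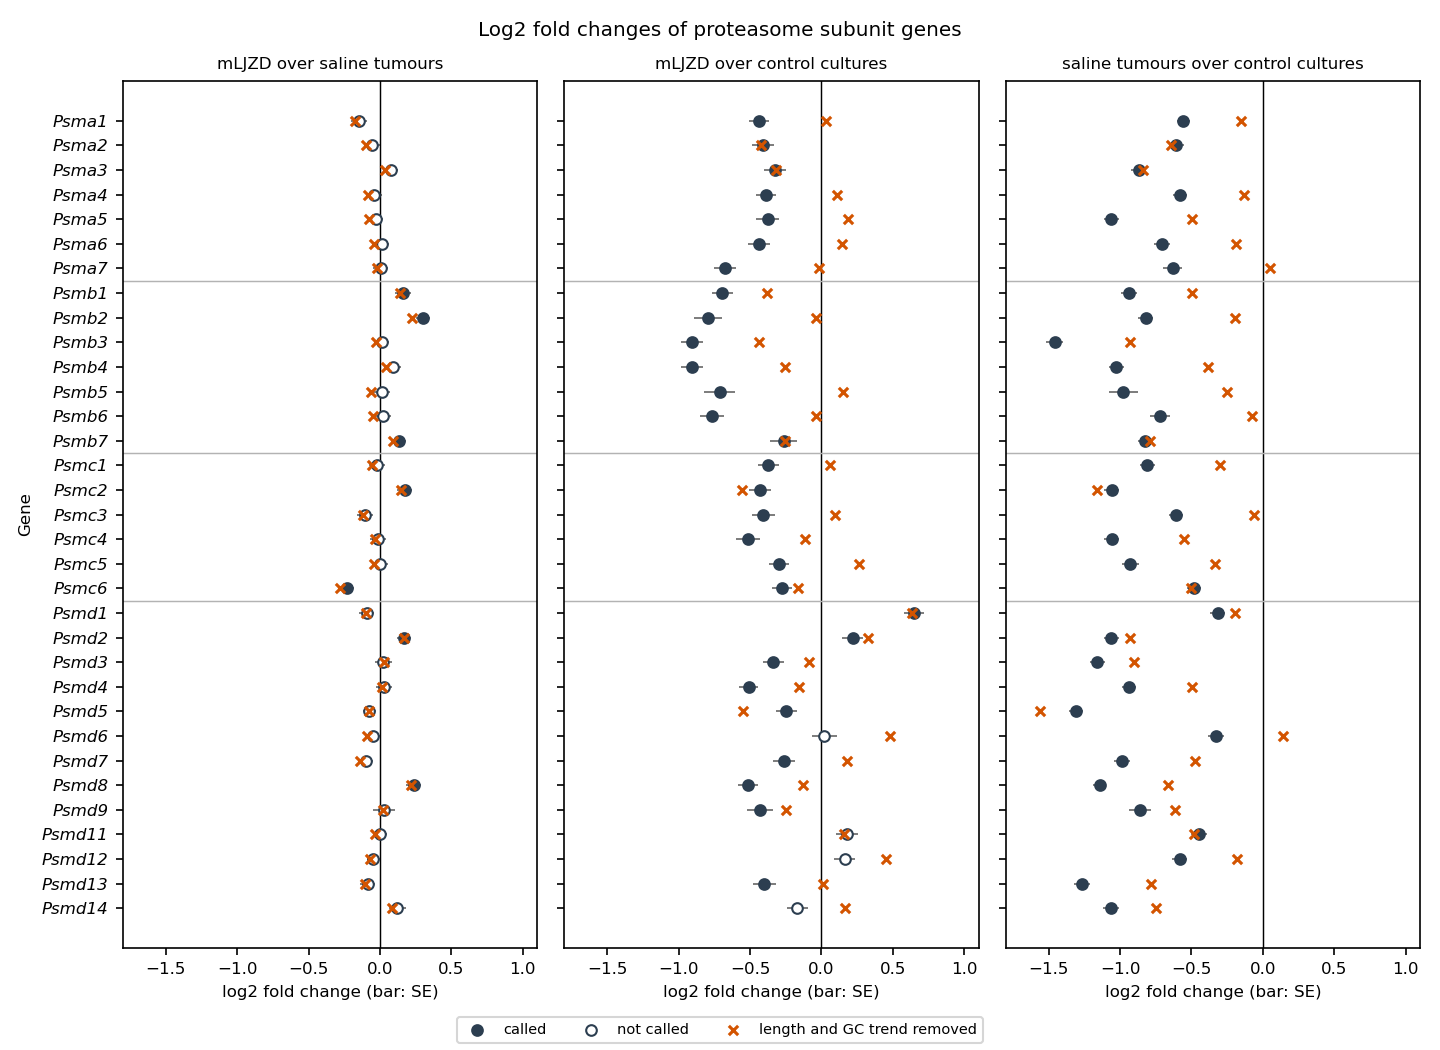
Log2 fold changes of each member with their SE in 3 comparisons, filled where edgeR's adjusted p was under 0.05, and crosses after removal of the length and GC trend. In the tumour panel the points lie between -0.23 and 0.30, in the culture panel 28 of 33 lie below 0, and in the panel of saline tumours over control cultures all 33 do.

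The culture result moved with transcript length. Across all 11180 protein-coding genes tested, the log2 fold change in cultures rose with the length of the longest transcript (Spearman rho 0.67), and across the 33 members rho was 0.52; genes of a library share its depth and composition, so both are descriptions. Protein-coding genes of under 1000 bases had a median log2 fold change of -0.76, those of 1000 to 1500 bases -0.58, of 1500 to 2000 bases -0.41, of 2000 to 3000 bases -0.21 and of 3000 to 4500 bases 0.08. The members are short, with a median of 1883 bases, beside 2891 bases over all protein-coding genes. The 3 members of under 1000 bases, Psmb2, Psmb5 and Psmb6, had a median of -0.77, the 7 of 1000 to 1500 bases -0.39 and the 11 of 1500 to 2000 bases -0.41, close to or above the other genes of their length. The 8 members of 2000 to 3000 bases had a median of -0.33 and the 4 of 3000 to 4500 bases of -0.013, below the other genes of their length.

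Once the trend of the libraries with length and GC content was removed, 9 members were lower and 6 higher in mLJZD cultures, where 14.3% of all genes were then called lower and 23.8% higher. The members' median was -0.017, beside 0.083 for all genes. Of the 27 falls 9 were kept, 16 ended and 2, Psmc5 and Psmd7, became higher. When the length of the annotated principal transcript was used instead, an alternative chosen after seeing the data, 7 members were lower and 6 higher, with a median of 0.040, where 12.4% of all genes were lower and 20.7% higher.

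The falls that held under both removals were those of Psma2, Psma3, Psmb1, Psmb4, Psmd5 and Psmd9. For Psmb4 the log2 fold change was -0.25 with the longest transcript (edgeR adjusted p = 0.0102) and -0.32 with the principal transcript (edgeR adjusted p = 0.00153). Psmb1 stood at -0.38 and -0.50, and Psmd5 at -0.55 and -0.67. Psmb3, whose longest and principal transcripts are 1509 and 766 bases long, was lower with the first (-0.43, edgeR adjusted p = 0.000259) and not called with the second (-0.12, edgeR adjusted p = 0.186). The falls of Psmb5, Psmb6 and Psmb2 ended under both, with 0.15, -0.038 and -0.039 for the longest transcript. Psmb7, with transcripts of 2849 and 1160 bases, was lower with the first (-0.26) and higher with the second (0.25, edgeR adjusted p = 0.0404).

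Psmd1 and Psmd2 were higher under both removals. Psmd1 stood at 0.63 (SE 0.06) with the longest transcript and 0.48 with the principal transcript, and Psmd2 at 0.33 (edgeR adjusted p = 0.00136) and 0.22 (edgeR adjusted p = 0.0126). The lid genes Psmd6 and Psmd12 were called higher after removal, at 0.48 and 0.45 with the longest transcript and 0.40 and 0.31 with the principal transcript. The ratio of core to regulatory particle in CPM averaged 0.538 ± 0.00534 in mLJZD cultures and 0.610 ± 0.00966 in control cultures after removal (SD, n = 2), against 0.504 ± 0.0126 and 0.673 ± 0.0266 before it. The libraries of both groups stayed apart.

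**Figure D4:**
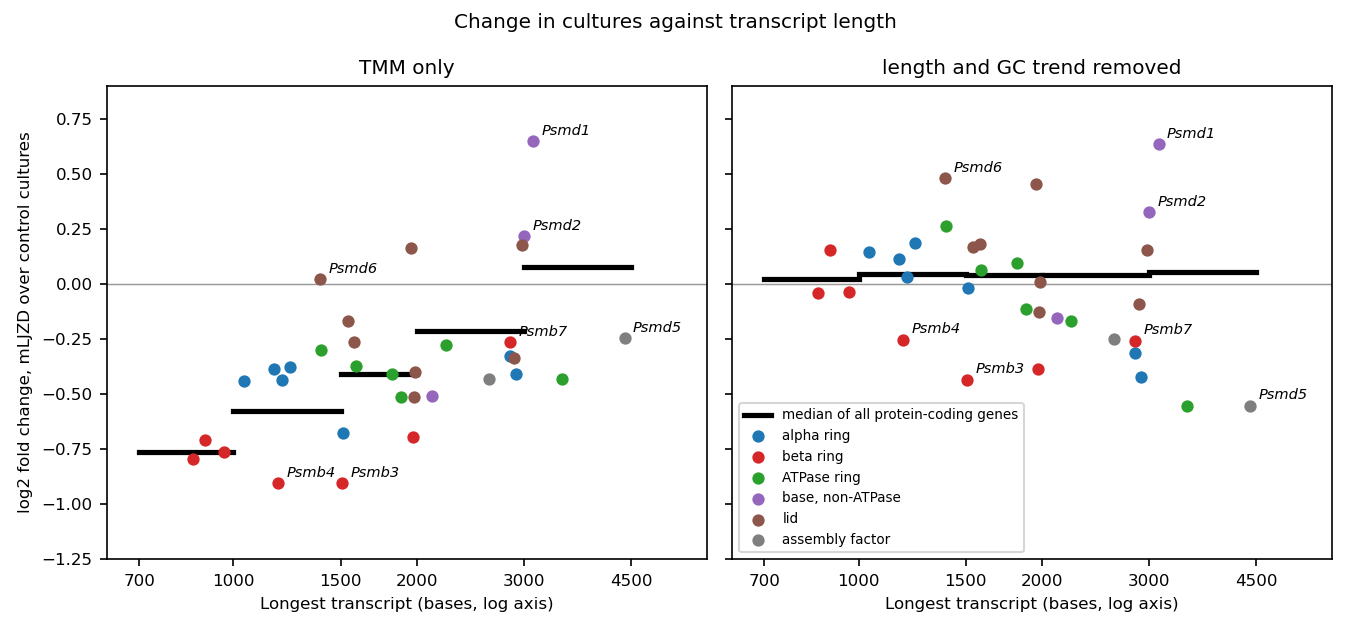
Log2 fold change of each member in cultures against the length of its longest transcript on a log axis, with black lines for the median of all protein-coding genes in each length range, before (left) and after (right) removal of the trend. On the left the members scatter around the black lines, which climb between -0.76 and 0.08, with Psmd1 (0.65) far above and Psmb3 (-0.91) far below. On the right the lines are near 0, with Psmd1 (0.63) at the top and Psmd5 (-0.55) among the lowest.

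Saline tumours had less RNA of every member, per count of the library, than control cultures. By edgeR all 33 members were lower in saline tumours, where 35.7% of all 15332 genes tested were lower and 44.9% higher. The median log2 fold change was -0.87 over the members and 0.15 over all genes. The core particle had a median of -0.82 and the regulatory particle of -0.94. With the length and GC trend removed 29 members were lower and Psmd6 was higher (0.14, edgeR adjusted p = 0.0328), with a median of -0.49, where 33.4% of all genes were lower and 43.6% higher. The principal transcript also gave 29 lower and 1 higher (33.9% and 43.5% of all genes), with a median of -0.46.

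The largest difference was that of Psmb3, with 79.4 and 80.3 CPM in saline tumours and 205 and 187 CPM in control cultures. Its log2 fold change was -1.46 (SE 0.06, edgeR adjusted p = 5.04e-09), and -0.93 with the trend removed. Psmd5 had 102 and 100.1 CPM in saline tumours and 222 and 226 CPM in control cultures (log2 fold change -1.31, SE 0.05, edgeR adjusted p = 2.01e-09), and -1.56 with the trend removed. The groups did not overlap for either gene. Psmd13, a lid subunit, had 93.3 and 85.6 CPM in saline tumours and 194 and 189.8 CPM in control cultures (log2 fold change -1.26, SE 0.06, edgeR adjusted p = 7.35e-09). Psmd3, also of the lid, had 150.1 and 152 CPM in saline tumours and 307 and 295 CPM in control cultures (log2 fold change -1.16, SE 0.05, edgeR adjusted p = 6.39e-09). All of these kept their call with the trend removed.

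The catalytic genes, whose values in each library are given above, were lower too. The log2 fold change of saline tumours over control cultures was -0.98 for Psmb5 (SE 0.10, edgeR adjusted p = 7.03e-06), -0.72 for Psmb6 (SE 0.07, edgeR adjusted p = 3.80e-06) and -0.82 for Psmb7 (SE 0.05, edgeR adjusted p = 9.80e-08). With the trend removed Psmb6 was not called (-0.074, edgeR adjusted p = 0.215). The smallest differences were those of Psmd1 (-0.32) and Psmd6 (-0.33). The 3 endothelial markers summed to 179 to 182 CPM in saline tumours and 0.0451 to 0.128 CPM in control cultures, and the 4 muscle markers had no count in control cultures. The 4 macrophage markers summed to 668 to 671 CPM in saline tumours and 8.29 to 10.6 CPM in control cultures, where Adgre1 and Csf1r were at 0. The part of these other cells in the differences was not tested.

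Before removal of the length and GC trend, the log2 fold change under mLJZD differed between the materials for most members. In the interaction over all 8 libraries, 27 members had a larger log2 fold change in tumours than in cultures and 1, Psmd1, a smaller one, while 23.8% of all 16090 genes tested were called in the first direction and 20.5% in the second. The differences came to 1.18 for Psmb2, 1.08 for Psmb4, 1.00 for Psmb3, 0.94 for Psmb1, 0.87 for Psmb6, 0.81 for Psmb5 and 0.48 for Psmb7 on the log2 scale. For Psmd1 the difference was -0.66 (SE 0.08, edgeR adjusted p = 4.67e-06). The 5 members that were not called were Psmc6, Psmd2, Psmd6, Psmd11 and Psmd12. With the trend removed 13 members were called in the first direction and 4 in the second (17.0% and 15.2% of all genes). With the principal transcript these were 9 and 3 (15.9% and 14.1% of all genes). The medians of the members were then 0.058 and -0.0025, beside -0.0038 and 0.0072 for all genes. Psmb5 and Psmb6 were not called in either fit, and Psmb3 and Psmb7 were not called with the principal transcript. Psmd6 and Psmd12 were called in the second direction in both fits. Across the 33 members, the log2 fold changes in tumours and in cultures, which share no library, had a Spearman rho of -0.35.

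Related genes outside the rule were measured beside the members. Of all genes tested, 28.8% were higher and 26.6% lower in mLJZD cultures, and 15.4% and 16.0% in mLJZD tumours. In saline tumours over control cultures 44.9% were higher and 35.7% lower. With the trend removed these shares were, in the same order, 23.8% and 14.3%, 15.8% and 16.2%, and 43.6% and 33.4%. With the principal transcript they were 20.7% and 12.4%, 15.9% and 16.2%, and 43.5% and 33.9%. The immunoproteasome list holds Psmb8, Psmb9 and Psmb10, interferon-inducible subunits that take the places of Psmb5, Psmb6 and Psmb7, and Psme1 and Psme2, which form a ring-shaped activator. In saline tumours all 5 were higher than in control cultures, with a median log2 fold change of 1.70, and all 5 kept the call with the trend removed. Psmb9 averaged 158 ± 4.59 CPM in saline tumours and 2.56 ± 0.367 CPM in control cultures, and Psmb8 averaged 135 ± 8.29 CPM in saline tumours and 5.87 ± 0.0239 CPM in control cultures (SD, n = 2). Their log2 fold changes were 5.78 (SE 0.10) and 4.35 (SE 0.09), against -0.72 and -0.98 for Psmb6 and Psmb5. Leukocyte RNA moved with them, as Ptprc shows above, and its part was not tested.

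Under mLJZD, every called gene of this list was lower. In tumours 3 of the 5 genes were lower, Psmb10 (log2 fold change -0.27), Psmb9 (-0.26) and Psmb8 (-0.19), and none was higher. In cultures all 5 were lower before trend removal. Psmb9 averaged 0.59 ± 0.0644 CPM in mLJZD cultures and 2.56 ± 0.367 CPM in control cultures (log2 fold change -2.18, SE 0.42, edgeR adjusted p = 0.000478). With the trend removed 1 of the 5 was lower, Psmb9, at -1.96 (SE 0.42, edgeR adjusted p = 0.00243). With the principal transcript it was again the 1 called, at -1.57 (edgeR adjusted p = 0.00822).

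The assembly chaperones, which build the core particle and base, were represented by 6 of 7 listed genes. In mLJZD cultures all 6 were lower, led by Psmg4 (log2 fold change -1.02), Psmg3 (-0.96), Pomp (-0.67) and Psmg1 (-0.57). After trend removal 2 were lower, Pomp (-0.80) and Psmg3 (-0.74). With the principal transcript 1 was lower, Pomp (-0.32), and Psmg3 was not called (-0.16). In mLJZD tumours Pomp was higher (0.23) and Psmg2 lower (-0.28). In saline tumours all 6 were lower than in control cultures, with a median of -0.86, and 5 after trend removal.

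Subunits and enzymes bound to the cap but outside the rule gave 2 higher and 2 lower of 6 in mLJZD cultures. The lower ones were Sem1 (-0.70), a small lid subunit, and Adrm1 (-0.64), a ubiquitin receptor, and the higher ones Ecpas (0.72), a proteasome adaptor, and Ube3c (0.43), a ubiquitin ligase. With the trend removed 3 were lower and 0 higher. With the principal transcript 2 were lower and 0 higher, and Adrm1 was not called (0.070). In mLJZD tumours Ecpas was higher (0.30) and Uchl5, a deubiquitinase, lower (-0.30), and in saline tumours all 6 were lower than in control cultures. The tumour calls under mLJZD were 1 of 6 in each direction, where 15.4% of all genes were higher and 16.0% lower. Of the other activators and the inhibitor, Psme4 (0.95) and Psme3 (0.17) were higher and Psmf1 (-0.22) was lower in mLJZD cultures, and none of the 3 was called in tumours. With the trend removed the culture values of Psme4, Psme3 and Psmf1 were 0.26, 0.32 and -0.34. With the principal transcript they were 0.21, 0.20 and -0.48, and all 3 kept their calls in both fits.

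Of 10 genes that act on proteasome gene expression, 4 were higher and 0 lower in mLJZD cultures, namely Ddi2 (1.20), the protease that cuts Nfe2l1 into its active form, Nfya (0.52), Stat3 (0.46) and Vcp (0.37). With the trend removed 3 were higher, Nfya (0.48), Vcp (0.38) and Ddi2 (0.37), and Nfyb was lower (-0.28), while Stat3 was not called (-0.015). With the principal transcript the same 3 were higher and 0 lower, with Nfyb at -0.15. Of all genes, 28.8% were higher in cultures before removal, 23.8% after it and 20.7% with the principal transcript. Nfe2l1 itself had a log2 fold change of 0.17 in cultures (edgeR adjusted p = 0.0540). In mLJZD tumours Vcp (0.39), which draws substrates out of membranes and complexes, and Nfe2l1 (0.26) were higher. These were 2 of the 10, where 15.4% of all genes were higher. In saline tumours 7 of the 10 were higher and 3 lower than in control cultures, with Stat3 (1.98), Ddi2 (1.48), Nfe2l2 (1.21) and Vcp (-0.89) the largest.

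Reads of near-identical copies bear on a few members. Annotated copies with at least 95% identity over at least 50% of the transcript were found for 5 members, and the largest was that of Psmb5. The processed pseudogene Gm3375, 98.9% identical to Psmb5, held 18655 counts over the 8 libraries and Psmb5 itself 10664. Gm3375 had 66.0 and 62.0 CPM in mLJZD tumours, 62.7 and 60.6 CPM in saline tumours, 119.8 and 114 CPM in mLJZD cultures and 183 and 176 CPM in control cultures. It was thus lowest in the tumours and highest in the control cultures, as Psmb5 was. The sources used here do not give how reads that map to both were counted, so the split between them is uncertain. With the counts added together, an alternative chosen after seeing the data, Psmb5 had a log2 fold change of -0.69 in cultures (edgeR adjusted p = 4.87e-06) and of -1.42 in saline tumours over control cultures (edgeR adjusted p = 7.70e-09). The copies of Psma5 held 14.2% as many counts as Psma5, and those of Psma4, Psmd2 and Psmc1 3.47%, 0.98% and 0.048%.

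**Figure D5:**
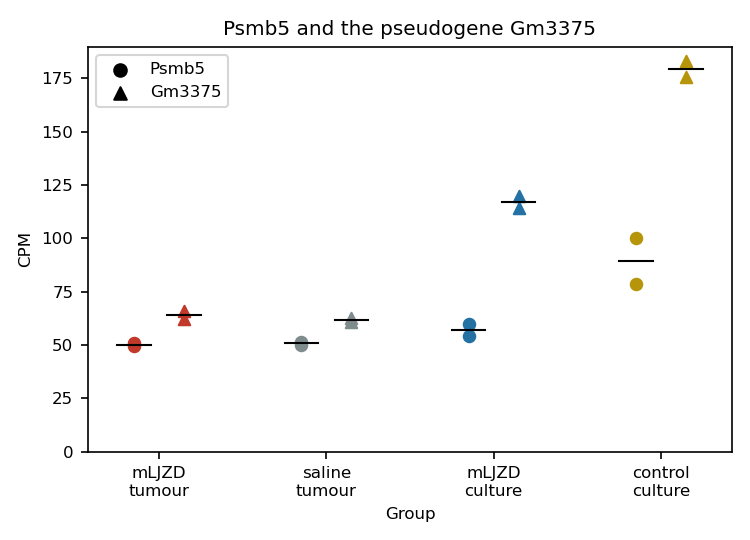
CPM of Psmb5 (circles) and of its pseudogene Gm3375 (triangles) in each library, with short lines for group means. Gm3375 lies above Psmb5 in every group, at 183 and 176 CPM in control cultures against 100.1 and 78.7 CPM for Psmb5.

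Annotated exons of 8 members overlap a gene on the opposite strand, among them Psmd9 with Gm26745 over 1849 bases, Psmb7 with Nek6 over 405 bases and Psmd1 with Htr2b over 252 bases. Psmd1 also shares 301 bases with Gm21972 on its own strand. The sources used here do not give the strand setting of the counting, so reads in these stretches cannot be told apart.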

How the data were processed

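The authors deposited raw read counts per gene for 8 libraries, 2 in each of 4 groups. Per the submitters' processing notes, featureCounts 2.0.3, SAMtools 1.14, HISAT2 2.2.1, FastQC 0.12.1 and Trim Galore were used, with GRCm39 as the build. The sources used here do not give strand setting, multi-mapping or annotation release. Library totals ran from 16594912 to 29363861 counts. Identifiers were named from GENCODE M21 on GRCm38, which also gave transcript lengths, GC content, exon overlaps and near-identical copies. The overlaps thus rest on another build than the counting. Of the 56953 identifiers, 4924 had no name and held 0.343 to 0.596% of the counts.

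Genes passing edgeR's filterByExpr were tested with edgeR 4.0.16 (quasi-likelihood F test, TMM scaling, R 4.3.3) with Benjamini-Hochberg adjustment over all genes tested and a threshold of 0.05. The comparisons were mLJZD over saline tumours, mLJZD over control cultures, saline tumours over control cultures, and the difference of both mLJZD effects over all 8 libraries. A trend in transcript length and GC content was fitted per library by loess (span 0.3) over protein-coding genes and entered as offsets. Alternatives were other scalings, DESeq2 1.42.0, no filter, a replicate block, all 8 libraries in one fit, the principal transcript, added copies (BLAST+ 2.17.0) and leaving out each library. The code was tested on simulated data. Replicates differed by more than sampling noise (chi-square per degree of freedom 2.69 to 11.6).

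Values in every library are given for Psmb5, Psmb6 and Psmb7, for up to 4 called members per direction with the largest change in each comparison, and for up to 4 called members against the direction of most; up to 4 called genes are named per pathway list. The members and lists were chosen with earlier results of these data known. SD and SE describe 2 libraries per group, and low counts limit their precision. Some results on ubiquitin genes are not reported here.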

Additional observations from a re-analysis of the deposited data

Results flagged for a closer look

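The difference between the mLJZD effect in tumours and that in cultures was tested directly as an interaction over the 8 libraries with edgeR. It passed the threshold in the larger direction for 27 members and in the smaller direction for 1 member. Among all 16090 genes tested, 23.8% were called in the larger direction and 20.5% in the smaller. Among the genes given with their values, the log2 difference was 1.18 for Psmb2, 1.08 for Psmb4, 1.00 for Psmb3, 0.94 for Psmb1, 0.87 for Psmb6, 0.81 for Psmb5 and 0.48 for Psmb7. For Psmd1 it was -0.66. With the length and GC trend removed, Psmb1, Psmb2 and Psmb4 kept the call with either transcript, as did Psmd1. Psmb5 and Psmb6 lost it with either transcript, and Psmb3 and Psmb7 lost it with the principal transcript.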

How the results depend on the processing

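The trend in length and GC content moved most counts, and the cause was not tested. In cultures the members called higher numbered 6 with the trend removed, 7 with the replicate block and the trend removed and 6 with the principal transcript, those lower 9, 9 and 7, and the median was -0.017, -0.017 and 0.040. Psmb5 stood at 0.15, 0.16 and 0.10 there, and with the principal transcript Psmb6 stood at 0.048 and Psmb7 at 0.25. In the interaction 13, 13 and 9 were higher and 4, 4 and 3 lower, with medians of 0.058, 0.058 and -0.0025. Psmb5 then stood at -0.13, -0.13 and -0.053, and with the principal transcript Psmb6 at -0.0025 and Psmb7 at -0.10. For saline tumours over control cultures 1 member was higher in each of the 3, the medians were -0.49, -0.49 and -0.46, and Psmb6 stood at 0.0016 with the principal transcript. In tumours 3, 2 and 2 were lower. Of all genes, 23.8% were higher and 14.3% lower in cultures with the trend removed, and 20.7% and 12.4% with the principal transcript. In the interaction these shares were 17.0% and 15.2%, then 15.9% and 14.1%. For saline tumours over control cultures they were 43.6% and 33.4%, then 43.5% and 33.9%. In tumours they were 15.8% and 16.2%, then 15.9% and 16.2%. For the other alternatives such shares were not taken.

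With library totals 2 members were lower in tumours, 4 higher in cultures and 3 lower in the interaction, with medians of -0.70 for saline tumours over control cultures and 0.27 in the interaction. Without a filter 3 were higher in tumours and the interaction median was 0.32. With all 8 libraries in one fit 3 were higher in tumours and the culture median was -0.48. Upper-quartile scaling gave 1 higher in cultures and a median of -0.51. The median of all genes moved with scaling, to -0.12 in cultures by upper quartile, against -0.013, and with library totals to 0.31 for saline tumours over control cultures, against 0.15, and to -0.095 in the interaction, against 0.066.

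The ratio of core to regulatory particle in mLJZD tumours, saline tumours, mLJZD cultures and control cultures was 0.723, 0.717, 0.538 and 0.610 in CPM with the trend removed, and 0.726, 0.725, 0.536 and 0.609 with the principal transcript. In TPM it was 1.12, 1.09, 0.793 and 1.05 with the longest transcript, 0.709, 0.692, 0.481 and 0.686 with the median transcript and 1.17, 1.142, 0.840 and 1.099 with the principal transcript. In CPM with the trend removed, the ratios of the tumour libraries overlapped. They were 0.715 and 0.731 in mLJZD tumours and 0.713 and 0.721 in saline tumours.

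Leaving out each library, where a lone library is assumed to vary like the other groups, gave 0 to 2 higher and 0 to 1 lower in tumours (median -0.046 to 0.029), 1 to 2 higher and 26 to 27 lower in cultures (-0.47 to -0.35), 33 lower for saline tumours over control cultures (-0.96 to -0.84), and 25 to 27 higher and 1 lower in the interaction (0.39 to 0.51). The ratio ran from 0.719 to 0.722, 0.6996 to 0.7097, 0.495 to 0.513 and 0.654 to 0.692 in CPM, and from 1.12 to 1.13, 1.08 to 1.104, 0.780 to 0.806 and 1.02 to 1.08 in TPM.

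Replicate numbers did not pair the samples: correlations of replicate differences ran from -0.079 to 0.016. With a replicate block the calls were 4 higher and 1 lower in tumours, 2 and 27 in cultures, 0 and 33 for saline tumours over control cultures, and 27 and 1 in the interaction. The principal transcript, added copies and trend-removed CPM were chosen after seeing the data.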

Other observations

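Genes that supply ubiquitin or carry it to the proteasome were measured as well. Of all genes, 28.8% were higher and 26.6% lower in mLJZD cultures, and 15.4% and 16.0% in mLJZD tumours. With the trend removed the culture shares were 23.8% and 14.3%. In mLJZD cultures Rps27a, which encodes ubiquitin fused to a ribosomal protein, had a log2 fold change of -0.79 and the polyubiquitin gene Ubb of -0.65, and both were lower by edgeR. After trend removal Rps27a was lower (-0.23) and Ubb was not called (-0.072). With the principal transcript neither was called, with Rps27a at -0.12 and Ubb at -0.13. In mLJZD tumours Rps27a was higher (0.53), and Ubb was not called (0.061). In saline tumours both were lower than in control cultures, Rps27a at -0.88 and Ubb at -0.29. With the trend removed Rps27a was lower (-0.45) and Ubb higher (0.32) there.

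Of the 6 shuttle factors, which bring ubiquitinated proteins to the cap, 5 were higher in mLJZD cultures, among them Ddi2 (1.20), Rad23b (0.56), Ubqln1 (0.45) and Ubqln2 (0.33). After trend removal 6 were higher, when Ddi2 stood at 0.37. With the principal transcript 5 were, and Ubqln2 was not called (0.22). In mLJZD tumours Rad23b was higher (0.26), and Ubqln2 (-0.29) and Ubqln4 (-0.25) were lower.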
